A study of Mus musculus with 14 samples.

Results

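Gene expression was described in 5 mouse liver tumours of the wild-type group (WT), out of 14 tumour libraries in the series, and no other genotype was compared with them. The members are the 5 libraries that the labels call WT, numbered WT 1 to WT 5 as in the labels. Per the labels, tumours were started by hydrodynamic injection, in which a rapid pulse of fluid into the blood carries DNA into liver cells, and the DNA here was plasmid that encodes c-Myc together with plasmid that encodes β-catenin. Tumours were taken when one reached 15 mm, when an animal showed distress, or at 8 weeks. The protocols, worded alike for every library, also describe tamoxifen at 75 mg/kg on 5 days for mice with floxed Cdk16 and Cre-ERT2 and for Cre-ERT2 controls, with tissue collected 10 days later. The sources used here do not say whether the WT mice were such controls, nor do they give strain, sex, age or the promoter of each plasmid. They also do not say that the 5 libraries came from 5 animals, so every SD below is the spread between libraries.

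β-Catenin is the signal carrier of the Wnt pathway: when it is stabilised it enters the nucleus, binds TCF and LEF factors and switches on target genes, several of which (Axin2, Nkd1, Notum, Rnf43, Znrf3) feed back to dampen the pathway. In normal liver this activity is limited to hepatocytes around the central vein, where it maintains enzymes such as glutamine synthetase. Myc is a transcription factor that pairs with Max and drives ribosome production, nucleotide synthesis and entry into the cell cycle. Hepatocytes are known for very high output of secreted plasma proteins, above all albumin, under factors such as HNF4α and FOXA.

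RNA was counted by its 3′ ends, 1 place per transcript, so levels are given as counts per 1000000 counts of the library (CPM), scaled with TMM factors, and are not divided by transcript length. A span, the highest over the lowest of the 5 libraries, was taken after adding a prior count of 2 before the log2, which narrows the spans of genes with few reads. Total counts ran from 1442417 (WT 5) to 6068209 (WT 2). A gene at 20 CPM thus had 28.5 expected reads in WT 5, a counting error of 18.7%, and 128 in WT 2, an error of 8.84%. The libraries differed in several ways besides the genes described below. Ribosomal RNA took 4.77, 1.16, 1.14, 4.57 and 10.3% of the counts in WT 1 to WT 5. The Y-linked genes Ddx3y, Eif2s3y, Kdm5d and Uty summed to 36.5, 4.38, 226, 19.2 and 716 CPM, so WT 3 and WT 5 stood above the other 3. Xist, made from a silenced X chromosome, had 984, 501, 35.5, 801 and 100.9 CPM and was lowest in the same 2. Genes highest in WT 3 had a median longest annotated transcript of 2626 bases, against 4747 bases for genes highest in WT 4 and 3614 bases for all genes. The part of these library properties in the results was not tested.

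No plasma protein gene was among the 20 genes with the highest mean in these liver tumours. Of the 20, 3 were ribosomal RNAs. Mt-Rnr2, the large ribosomal RNA of mitochondria, stood at 21424, 4870.4, 3332, 17591 and 45057 CPM in WT 1 to WT 5, and the 18S row Rn18s-rs5 at 19063, 3519.9, 6344, 18282 and 39618 CPM. Both were lowest in WT 2 and WT 3 and highest in WT 5. Among messenger RNAs the first was Hsp90ab1, a cytosolic chaperone, with 6496, 3766, 4254, 4391 and 5359 CPM, a mean of 4853 ± 1085 CPM (SD, n = 5). It was followed by the nucleolar protein genes Ncl (2812 ± 893 CPM (SD, n = 5)) and Npm1 (2139 ± 612 CPM (SD, n = 5)), the RNA-binding protein gene Serbp1 (2535 ± 519.5 CPM (SD, n = 5)) and Tcf4, a transcription factor gene. Tcf4 had 2031, 1475, 1505, 2791 and 2930.4 CPM. It is a basic helix-loop-helix factor and not the Wnt effector once called TCF-4, whose gene is Tcf7l2. The rest of the 20 were the long non-coding RNA Malat1, the mitochondrial messages mt-Cytb, mt-Nd4, mt-Nd2 and mt-Nd1, the poly(A)-binding protein gene Pabpc1, prothymosin (Ptma), the ribosomal protein genes Rps21 and Rps20, the elongation factor gene Eef2, β-actin (Actb) and the histone chaperone gene Nap1l1.

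Abundance was spread over many genes. The 20 genes together held 9.02, 4.05, 4.27, 8.17 and 14.7% of the counts in WT 1 to WT 5, a mean of 8.04% ± 4.34 (SD, n = 5), and the 20 most abundant genes without ribosomal RNA held 3.27 to 5.28% of what was left. Albumin, the leading message of normal liver, was in rank 320 by mean. Its rank within the libraries was 5873, 21, 3508, 1837 and 202 in WT 1 to WT 5, best in WT 2 and next in WT 5. In all, 12927 genes reached 1 CPM in each of the 5 libraries.

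**Figure D1:**
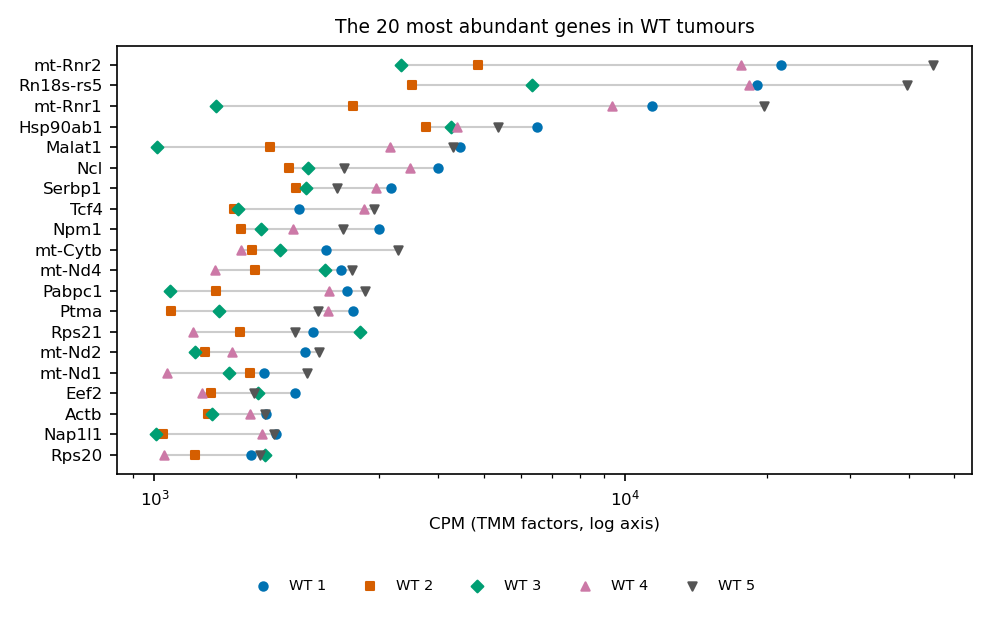
CPM of the 20 genes with the highest mean over the 5 WT tumours, 1 symbol per tumour, on a log axis, with a grey line from the lowest to the highest tumour. The 3 ribosomal RNA rows spread over more than 10-fold and are lowest in WT 2 or WT 3, while β-actin (Actb) spans 1.33-fold.

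To separate steady from varying genes, the 7948 genes with a mean of at least 20 CPM, which held 93.3% of the counts, were ordered by their highest over their lowest library. The median gene differed 2.24-fold between its highest and lowest tumour. Genes within 1.5-fold were called steady and numbered 770 (9.69% of those tested), and genes at 8-fold or more were called widely varying and numbered 357 (4.49%). No test stands behind these calls: they are folds among 5 libraries of 1 group. Of the 357 widely varying genes, 194 (54.3%) were highest in WT 2, and without WT 2 there were 190 such genes, of which 170 were among the 357. Over all genes tested, WT 2 was highest for 20.0%, WT 3 for 27.6% and WT 5 for 13.5%. Of the 770 steady genes 238 were steady under each of 6 ways to scale the libraries, and of the 357 widely varying genes 295 were so under each.

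**Figure D2:**
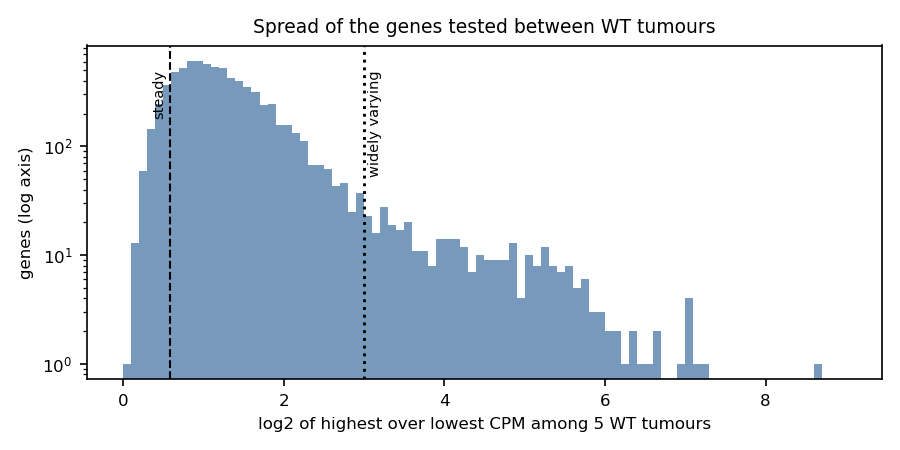
Number of genes (log axis) by the log2 span, the highest minus the lowest log2 CPM among the 5 WT tumours, for the 7948 genes with a mean of at least 20 CPM. The dashed line marks 1.5-fold, with 770 steady genes at or below it, and the dotted line 8-fold, with 357 widely varying genes at or above it.

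Hepatocyte genes varied most: by median span, liver secreted proteins were the widest list after the sex-linked genes. Of 34 genes for liver secreted proteins, 31 passed the filter, and all 31 varied at least 8-fold (4.49% of all genes did) with a median of 36.9-fold. All 31 were highest in WT 2, under each of the 6 scalings. The filter is on the mean, so a gene can pass through 1 tumour: 7 of the 34 genes reached 20 CPM in WT 1, 12 in WT 3, 18 in WT 4, 28 in WT 5 and 32 in WT 2. The 3 below the filter were Apom, Serpina1d and Serpina1e. Summed over the 34 genes, the list stood at 492, 12460, 1013, 1465 and 4158 CPM in WT 1 to WT 5. WT 2 was thus 25.3 times WT 1, WT 5 stood second, and the other 3 tumours were each below 1500 CPM. Fewer hepatocyte-like cells and less of this RNA in each cell cannot be told apart in bulk tissue. Without WT 2 the median log2 range of the list was 2.98, against 5.21 with it, which is close to 8-fold among the other 4 tumours.

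Albumin, the main carrier protein of plasma (Alb, chr5:90460897-90476602), had 34.9, 1256, 71.0, 129 and 557 CPM in WT 1 to WT 5, a 35.4-fold span. Transferrin (Trf), the iron carrier, had 96.1, 1336, 210.4, 309.5 and 577 CPM, and the fetuin gene Ahsg had 58.7, 1016, 97.4, 160.2 and 587 CPM. In all of them WT 2 was highest, WT 5 second and WT 1 lowest. Lipoprotein genes differed in width. Apoe, which clears lipoprotein remnants, had 51.7, 612, 139, 102 and 179 CPM and was the narrowest of the 31 with a 11.7-fold span. Apoa1, the main protein of high-density lipoprotein, had 9.86, 566, 18.1, 44.9 and 129 CPM, a span of 54.1-fold, and Apoc1 had 3.29, 293, 14.8, 15.2 and 77.1 CPM. Fgb, one chain of fibrinogen, the clotting protein, had 20.9, 656, 34.2, 74.7 and 302 CPM, and its neighbours Fga and Fgg spanned 28.1-fold and 38.0-fold. α-Fetoprotein (Afp), the fetal counterpart of albumin that lies beside it on the same strand, followed the same order with 21.8, 789.96, 41.0, 25.4 and 169 CPM, except that WT 3 was above WT 4.

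The 250 bases before the RefSeq start of Alb, Afp and Fgb are shown as examples that hold the motif GTTAAT. These 3 genes were highest in WT 2 and next in WT 5, but this does not single them out. All 31 liver secreted protein genes tested were highest in WT 2, and Afp is not on that list. Sequences are from RefSeq promoters of GRCm38.p6, written 5′ to 3′ on the strand of the gene, and capitals mark GTTAAT or its reverse complement, a motif known from promoters of liver genes. The windows are chr5:90460620-90460869 on the + strand for Alb, chr5:90490464-90490713 on the + strand for Afp and chr3:83049864-83050113 on the minus strand for Fgb.
Alb: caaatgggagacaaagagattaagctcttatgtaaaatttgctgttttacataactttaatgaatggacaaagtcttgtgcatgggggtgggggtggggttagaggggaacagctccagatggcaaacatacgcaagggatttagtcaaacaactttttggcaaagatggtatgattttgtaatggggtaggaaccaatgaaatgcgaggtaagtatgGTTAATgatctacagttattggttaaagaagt
Afp: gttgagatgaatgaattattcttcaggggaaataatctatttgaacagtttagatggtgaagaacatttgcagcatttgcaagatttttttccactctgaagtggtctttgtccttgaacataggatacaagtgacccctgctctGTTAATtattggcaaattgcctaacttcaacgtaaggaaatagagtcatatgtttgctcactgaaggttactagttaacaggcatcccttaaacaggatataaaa
Fgb: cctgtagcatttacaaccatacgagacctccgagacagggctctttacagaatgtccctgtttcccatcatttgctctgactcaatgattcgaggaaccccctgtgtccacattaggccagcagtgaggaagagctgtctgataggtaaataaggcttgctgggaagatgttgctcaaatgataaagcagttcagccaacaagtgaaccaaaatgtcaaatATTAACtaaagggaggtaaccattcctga
Searched on both strands in such windows, GTTAAT was found in 10 of the 27 promoters that matched the list of liver secreted proteins (37.0%), and in 1762 of 27025 promoters of all genes (6.52%). It was found in 0 of 45 promoters of the ribosome biogenesis list. A match of letters does not show that a factor binds there.

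Intracellular hepatocyte enzymes followed the plasma proteins. Of 32 genes of this list, 19 passed the filter. Of these, 16 varied at least 8-fold (4.49% of all genes did), and 18 were highest in WT 2 (20.0% of all genes were), or 15 to 18 under the 6 scalings. Here too a gene can pass the filter on the mean through WT 2 alone, which favours such counts. Of the 32 genes 6, 26, 8, 8 and 19 reached 20 CPM in WT 1 to WT 5. Cps1, the first enzyme of the urea cycle, had 10.3, 153, 8.39, 12.2 and 61.7 CPM in WT 1 to WT 5, and the fatty acid carrier gene Fabp1 had 9.03, 280.4, 19.4, 17.8 and 62.4 CPM. Again WT 2 was highest and WT 5 second, with 50 CPM or less in WT 1, WT 3 and WT 4 for both. Cpt1a, which brings fatty acids into mitochondria, was the narrowest of the 19, with 57.5, 103, 50.3, 43.3 and 92.5 CPM.

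Hepatocyte transcription factors had several orders. Hnf4a, which maintains the hepatocyte state, had 0 counts in WT 1 and 1 in WT 4, with 0, 46.9, 3.23, 0.330 and 7.71 CPM in WT 1 to WT 5. It was highest in WT 2. Foxa2 did not follow it: it had 102, 234, 278, 16.2 and 217 CPM and was at 102 CPM or more in all tumours but WT 4. Prox1, an early liver factor, was present in all 5 with 85.8, 151, 45.8, 69.4 and 114 CPM. Onecut2, a factor of liver and bile duct development, had 25.9, 79.5, 20.6, 389 and 28.0 CPM, highest in WT 4 and next in WT 2. Of 22 factors on the list 8 passed the filter, 4 varied at least 8-fold (4.49% of all genes did) and none was steady (9.69% of all genes were). Set against the label of hepatocellular carcinoma, Alb and Hnf4a, the latter below the filter, were highest in WT 2, next in WT 5 and lowest in WT 1. There albumin was at 34.9 CPM and 0 reads of Hnf4a allow up to 1.23 CPM (3 counts, counting error only). The factors that passed the filter did not share this order: none of the 8 was lowest in WT 1.

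**Figure D3:**
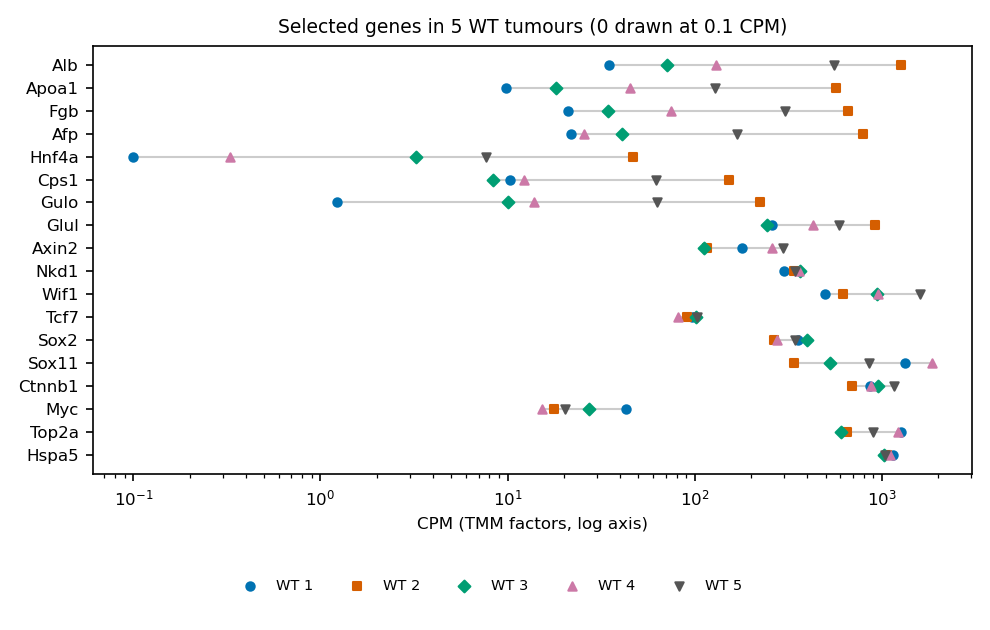
CPM of 18 genes in the 5 WT tumours, 1 symbol per tumour, on a log axis, with values of 0 drawn at 0.1 CPM. Alb, Apoa1, Fgb, Afp, Hnf4a and Cps1 span more than 16-fold with WT 2 highest, while Nkd1, Tcf7, Sox2 and Hspa5 stay within 1.5-fold.

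Zonation genes of both liver zones took part in the wide spread. Of 16 perivenous genes 9 passed the filter and 5 varied at least 8-fold, and of 18 periportal genes 10 passed and 8 did so, beside 4.49% of all genes. Both lists share members with the secreted protein and enzyme lists, such as Alb, Arg1, Cps1 and Cyp2e1, so they are not separate evidence. A gene can again pass the filter through WT 2: 4, 14, 5, 4 and 10 perivenous and 4, 14, 5, 3 and 8 periportal genes reached 20 CPM in WT 1 to WT 5. Glul, glutamine synthetase, is the classic β-catenin target of the central vein and had 259.5, 914, 244, 429 and 590.1 CPM in WT 1 to WT 5, a span of 3.74-fold. It was at 244 CPM or more in every tumour and highest in WT 2 and WT 5. Cyp2e1, a central-vein cytochrome, had 5.34, 153, 11.3, 9.91 and 63.1 CPM, and Gulo, the last enzyme of vitamin C synthesis, had 1.23, 223, 10.0, 13.9 and 63.1 CPM, a span of 121-fold. Periportal Arg1, the arginase of the urea cycle, had 21.8, 179, 48.7, 32.4 and 93.9 CPM. Cyp2e1, Gulo and Arg1, from both zones, were lowest in WT 1 and highest in WT 2.

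Wnt feedback genes and targets were expressed in all 5 tumours with a narrower spread than the hepatocyte genes. Of 19 genes 16 passed the filter, 3 were steady (9.69% of all genes were) and 0 varied 8-fold (4.49% of all genes did), with a median span of 2.34-fold beside 2.24-fold over all genes. Their sum was 3368, 3271, 3960, 4161 and 5393 CPM in WT 1 to WT 5, within 1.65-fold. Nkd1, an intracellular inhibitor of the pathway, had 299.8, 339, 365, 360.04 and 342 CPM, and the receptor gene Tnfrsf19 had 261, 332, 260.04, 254 and 312 CPM. Tcf7, one of the TCF factors, had 96.9, 90.5, 101.3, 81.3 and 102 CPM. Nkd1 and Tnfrsf19 were steady under each of the 6 scalings and Tcf7 under 5. The secreted Wnt antagonist Wif1 was the most abundant of the list with 497, 619.6, 936, 952 and 1596 CPM, and Apcdd1, an inhibitor at the cell surface, had 674, 442, 821, 934 and 1065 CPM. Both were highest in WT 5.

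Axin2, the scaffold of the β-catenin destruction complex and a general read-out of the pathway, had 178, 116, 112, 259.96 and 294 CPM, with WT 2 and WT 3 lowest. The same 2 tumours were lowest for Lef1 (150.3, 52.98, 77.1, 178 and 177 CPM) and for Znrf3 (140.5, 66.9, 57.1, 135 and 159 CPM), which removes Wnt receptors from the cell surface. They were instead highest for Rnf43 (58.3, 97.8, 104, 45.9 and 60.3 CPM), the partner of Znrf3, and among the higher ones for the stem cell receptor Lgr5 (27.9, 63.0, 56.5, 33.7 and 57.5 CPM). Notum, which inactivates Wnt proteins, had 118, 108, 149, 105 and 214 CPM. The members of this list thus differed up to 5.93-fold (Sox9), and not in 1 shared order of tumours.

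Sp5, a transcription factor gene directly switched on by Wnt signalling, had 63.2, 198, 201, 206 and 245 CPM, low in WT 1 alone. Its promoter is shown because it holds the TCF and LEF core CTTTGAT, in capitals, in the 250 bases before the start (RefSeq, GRCm38.p6, chr2:70474673-70474922, + strand).
Sp5: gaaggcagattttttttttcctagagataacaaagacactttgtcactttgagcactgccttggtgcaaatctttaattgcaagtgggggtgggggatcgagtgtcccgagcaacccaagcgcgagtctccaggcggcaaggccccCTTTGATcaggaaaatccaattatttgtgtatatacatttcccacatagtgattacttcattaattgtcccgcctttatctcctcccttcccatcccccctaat
On both strands this motif was in 1 of 11 matched promoters of the Wnt list (9.09%) and in 872 of 27025 promoters of all genes (3.23%).

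The drivers lay far apart in level. Ctnnb1, which encodes β-catenin (chr9:120929216-120960507), had 865, 696, 951, 874 and 1165 CPM in WT 1 to WT 5, a mean of 910.1 ± 170.2 CPM (SD, n = 5), and ranked 59 by mean. Myc (chr15:61985391-61990374) had 42.7, 17.7, 27.1, 15.2 and 20.3 CPM, a mean of 24.6 ± 11.1 CPM (SD, n = 5), and ranked 7213 by mean. WT 1 was highest for Myc and WT 5 for Ctnnb1. Reads come from the 3′ end, and the sources used here do not say whether the plasmid copies keep the 3′ end of the mouse genes, so these counts may leave out plasmid messages. Of the Myc network, the partner Max had 177, 156, 199, 107 and 109 CPM, and the Max-binding repressor Mga had 464, 223, 196, 399 and 280.4 CPM. Mxd4 and Mxi1, which compete with Myc for Max, averaged 143 ± 29.7 CPM (SD, n = 5) and 135 ± 34.3 CPM (SD, n = 5). Mycn and Mycl averaged 1.41 ± 1.23 CPM (SD, n = 5) and 15.4 ± 7.22 CPM (SD, n = 5). None of the 10 members that passed the filter varied 8-fold (4.49% of all genes did) and none was steady (9.69% of all genes were).

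The kinases that the study deleted in other tumours were low to moderate here. Cdk16 had 52.98, 67.4, 58.7, 41.9 and 41.4 CPM in WT 1 to WT 5 and Cdk18 2.46, 11.9, 5.81, 1.321 and 4.21 CPM, from 6, 76, 18, 4 and 6 reads. Ccny, cyclin Y, the partner that activates CDK16, was steady at 114, 147, 135, 119.9 and 111 CPM. Cdk18 was lowest in WT 4 and highest in WT 2, and with this few reads its order is loose. Cdk17 and Cdk14, related kinases, averaged 51.2 ± 18.3 CPM (SD, n = 5) and 44.1 ± 20.6 CPM (SD, n = 5).

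Proliferation genes were expressed in every tumour, and none of those tested for mitosis or S phase varied 8-fold (4.49% of all genes did). G2 and mitosis genes summed to 9661, 7001, 8325, 9684 and 7078 CPM in WT 1 to WT 5. Of these 62 genes 57 passed the filter and 4 were steady (9.69% of all genes were). The median span was 2.05-fold, beside 2.24-fold over all genes. Top2a, the topoisomerase that untangles chromosomes, had 1271, 653, 608, 1223 and 890.1 CPM. Mki67, the Ki-67 antigen, had 276, 93.8, 80.7, 311 and 196 CPM, and Birc5, survivin, had 224, 211, 266, 193 and 180.1 CPM. WT 1 and WT 4 were highest for Top2a and Mki67, while WT 3 was highest for Birc5. S phase genes summed to 4194, 3553, 4542, 3925 and 2601 CPM, with 42 of 45 past the filter, 1 steady (9.69% of all genes were) and a median span of 2.24-fold. The replicative helicase gene Mcm3 had 241, 179, 255, 182 and 118 CPM, and the primase gene Prim2 had 23.8, 24.4, 32.6, 23.8 and 21.0 CPM, a 1.53-fold span. WT 5, the shallowest library, was lowest for 31 of these 42 genes, which was 34.5% of all genes, and for 21 to 31 of them under the 6 scalings.

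Among G1 regulators, the D-type cyclins led. Ccnd2, cyclin D2, had 1599, 733, 855, 2634 and 1007 CPM, rank 22 by mean, and was highest in WT 4. Cyclin D1 (Ccnd1), itself a Wnt target, had 650.1, 368, 411, 476 and 466 CPM. Their kinase partners Cdk6 and Cdk4 averaged 328 ± 67.6 CPM (SD, n = 5) and 150.4 ± 51.6 CPM (SD, n = 5). The inhibitor gene Cdkn1a (p21) had 257, 102, 69.7, 309 and 223 CPM, lowest in WT 2 and WT 3, and Cdkn1c (p57) had 212, 108, 54.5, 39.0 and 117 CPM. Of 17 members tested 1 varied 8-fold (4.49% of all genes did) and none was steady (9.69% of all genes were).

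The machinery of protein synthesis took a large share of the counts. Ribosomal protein genes held 4.29, 3.66, 5.38, 2.63 and 3.87% in WT 1 to WT 5. Of the 63 genes 62 passed the filter, with 0 steady (9.69% of all genes were) and 0 varying 8-fold (4.49% of all genes did). 46 of the 62 were highest in WT 3 (27.6% of all genes were) and 53 were lowest in WT 4 (18.4% of all genes were). Under the 6 scalings these numbers ran from 41 to 52 and from 37 to 54. Over all genes, those highest in WT 3 had the shorter transcripts (median 2626 bases) and those highest in WT 4 the longer (4747 bases). The part of transcript length in this order was not tested. Rps14 had 1147, 715, 1607, 629 and 1175 CPM and Rpl32 1148, 974, 1673, 674 and 1195 CPM. Many of these genes have near-identical pseudogene copies, and Rps12-ps9, annotated as one, had 1498, 932, 1411, 915 and 1672 CPM beside 1665, 1101, 1694, 871 and 1415 CPM for Rps12, so the level of single members is uncertain. Ribosome biogenesis genes, a core Myc programme, had another order: 27 of 49 were highest in WT 1 (19% of all genes were), and 20 to 27 under the 6 scalings, with 1628, 778, 984, 958 and 870.5 CPM for Dkc1, a modifier of ribosomal RNA, and 694, 247, 231, 534 and 280.4 CPM for Nop56. Of 28 translation factors 5 were steady (9.69% of all genes were), among them Eif2s2 at 1678, 1365, 1416, 1319 and 1257 CPM and Eif4e, the cap-binding factor, at 189, 189, 214, 205 and 217 CPM.

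Nuclear pore genes, whose products form the channels of the nuclear envelope, and DNA repair genes are both named in the title of the series. Of 30 pore genes 26 passed the filter, 1 was steady (9.69% of all genes were) and 0 varied 8-fold (4.49% of all genes did). Their sum was 3578, 2684, 2880, 3448 and 2686 CPM in WT 1 to WT 5. Tpr, the basket protein, was the most abundant with 1308, 658, 413, 982 and 917 CPM, and Seh1l, a scaffold subunit, was the steadiest with 92.4, 93.5, 111, 87.5 and 112 CPM. Of 48 repair and checkpoint genes 32 passed, 1 was steady and 0 varied 8-fold, beside the same 9.69% and 4.49% of all genes. Parp1, which senses strand breaks, had 261, 171, 222, 238 and 133 CPM, and Rad17, a checkpoint clamp loader, had 110.1, 91.7, 118, 98.1 and 102 CPM and was the steady one.

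**Figure D4:**
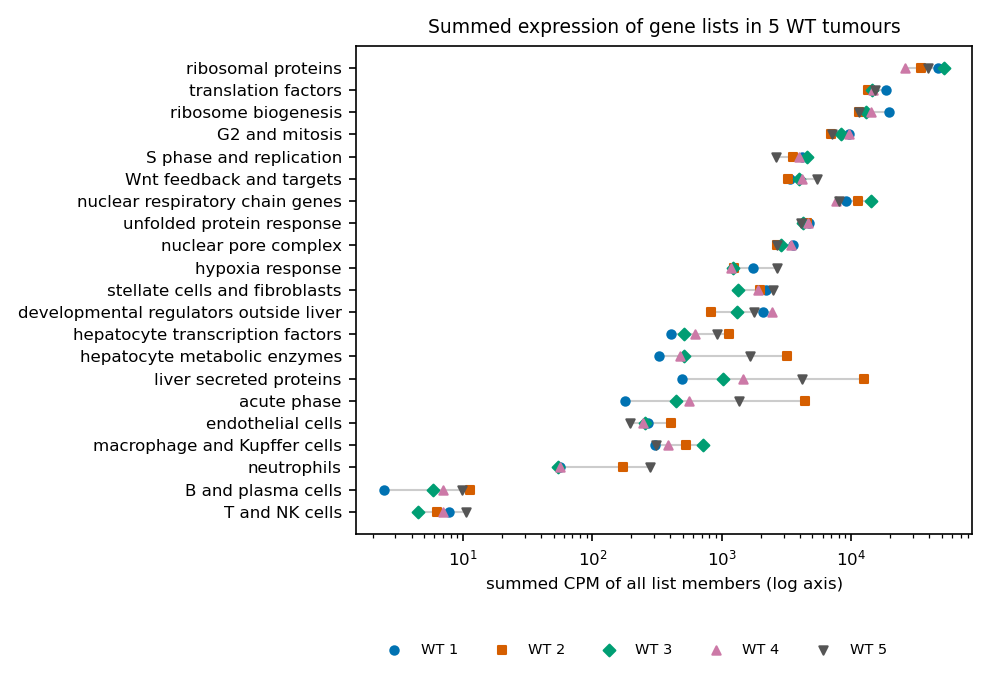
Summed CPM of all members of 21 gene lists in the 5 WT tumours, 1 symbol per tumour, on a log axis. Liver secreted proteins span 25.3-fold and acute phase genes 24.8-fold with WT 2 highest, while unfolded protein response, mitosis and nuclear pore genes stay within 1.5-fold, and T and B cell lists lie at 11.2 CPM or less.

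Of 30 regulators of embryonic and neural development on the list 8 passed the filter, and none of these varied 8-fold (4.49% of all genes did). Sox11, a factor of the embryonic nervous system, had 1331, 338, 528, 1852 and 850.2 CPM in WT 1 to WT 5, and Sox2, a pluripotency and neural factor, was steady with 357, 266, 398, 275 and 343 CPM. Sox4, a related progenitor factor, was steady too, with 697, 601, 535, 471 and 574 CPM. Among the 3 genes, Sox11 alone varied over 4-fold, while Sox4 was steady under each of the 6 scalings and Sox2 under 4. Sox21 averaged 86.5 ± 25.1 CPM (SD, n = 5) and the homeobox gene Irx3 56.5 ± 20.0 CPM (SD, n = 5). Among those below the filter, Dlx5, a skeletal and neural homeobox gene, had 3.29, 0.469, 0.645, 1.65 and 30.1 CPM, highest in WT 5. Hoxd13, a limb patterning gene, had 0, 0, 0, 0.330 and 8.41 CPM, also highest in WT 5. Both were chosen after their values were seen.

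Fetal liver and imprinted genes included several wide spans: 6 of 14 oncofetal and 4 of 10 imprinted genes tested varied 8-fold, beside 4.49% of all genes. The 2 counts are not separate, since H19 is on both lists. A gene can also pass the filter on the mean through 1 tumour, as Igf2bp1 did through WT 4. H19, an imprinted non-coding RNA of fetal tissue, had 156, 1791, 120.02, 114 and 554 CPM in WT 1 to WT 5, highest in WT 2 and WT 5 as the plasma proteins were. Its neighbour Igf2, the fetal growth factor, had 5 reads in WT 2 and 0 in the other 4 libraries. The sources used here do not say how reads over overlapping genes were treated, so the Igf2 row is not read as absence. Dlk1, a fetal membrane protein gene, had 186, 316, 66.1, 204 and 114 CPM. Meg3, the non-coding RNA of the same imprinted region, had 152, 336, 23.9, 95.1 and 47.7 CPM, and both were highest in WT 2 and lowest in WT 3. Peg3 was highest in WT 4 with 68.2, 38.4, 19.04, 488 and 125 CPM, while Grb10 and Igf2r were steady at 393 ± 45.2 CPM (SD, n = 5) and 129 ± 18.8 CPM (SD, n = 5). Glypican 3 (Gpc3), a marker of liver cancer, had 97.3, 160.3, 58.7, 111 and 147 CPM, a 2.71-fold span with WT 3 lowest. The RNA-binding protein genes of fetal tissue were highest in WT 4: Igf2bp1 had 17.7, 2.50, 11.9, 271 and 17.5 CPM and Igf2bp3 84.2, 46.6, 7.74, 164 and 30.8 CPM.

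Epithelial genes were mostly lowest in WT 4. Of 10 biliary and progenitor genes that passed the filter, 8 were lowest in WT 4 (18.4% of all genes were) and 5 varied 8-fold (4.49% of all genes did). Krt18, a keratin of simple epithelia, had 43.5, 67.5, 29.4, 4.62 and 19.6 CPM in WT 1 to WT 5, the junction gene Cldn7 had 49.3, 14.4, 38.7, 0.991 and 7.01 CPM, and Krt19, a bile duct keratin, had 32.9, 9.38, 19.04, 0.991 and 8.41 CPM. Epcam, an epithelial adhesion gene, had 142, 40.8, 138, 64.4 and 78.5 CPM, with WT 1 and WT 3 highest. Cdh1 (E-cadherin) was also lowest in WT 4, with 341, 261, 328, 155 and 239 CPM. Twist1, a factor of epithelial to mesenchymal transition, had 30.4, 1.56, 11.3, 213 and 136 CPM and was highest in WT 4 and WT 5, as Zeb2, another such factor, was with 105, 23.9, 37.7, 183 and 175 CPM. Vim (vimentin) had 228, 149, 372, 412 and 599 CPM, highest in WT 5 and lowest in WT 2. The whole list of transition genes had no such order and summed to 3385, 2292, 2706, 2980 and 3341 CPM. Of its 16 members tested 5, 3, 0, 5 and 3 were highest in WT 1 to WT 5 (19, 20, 27.6, 19.9 and 13.5% of all genes were). Of the 16, 5 were lowest in WT 4 and 1 varied 8-fold.

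The unfolded protein response had the narrowest median span of the 43 lists with a tested member, at 1.68-fold: its sum was 4691, 4584, 4274, 4598 and 4125 CPM in WT 1 to WT 5, and 5 of 17 members tested were steady (9.69% of all genes were). Hspa5, the main chaperone of the endoplasmic reticulum (BiP, chr2:34771970-34777547), had 1149, 1061, 1019, 1099 and 1033 CPM, a span of 1.13-fold and a CV of 4.91% against a counting error of 1.89%. It was steady under each of the 6 scalings. Its promoter is shown because it is among the 10 steadiest genes and holds the endoplasmic reticulum stress element, in capitals, which is CCAAT and CCACG with 9 bases of any kind between them (RefSeq, GRCm38.p6, chr2:34771840-34772089, + strand). The window ends at the RefSeq start, while the GENCODE position given above begins at 34771970. By that GENCODE position the element lies within the gene.
Hspa5: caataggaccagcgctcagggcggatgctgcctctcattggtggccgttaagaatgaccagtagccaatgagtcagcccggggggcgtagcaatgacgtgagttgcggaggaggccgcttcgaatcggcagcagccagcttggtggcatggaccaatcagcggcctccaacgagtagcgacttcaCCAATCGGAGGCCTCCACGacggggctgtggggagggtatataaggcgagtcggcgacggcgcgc
On both strands this element was in 7 of 21 matched promoters of the list (33.3%) and in 33 of 27025 promoters of all genes (0.122%). Hypoxia genes were highest in WT 5 for 13 of 17 members tested (13.5% of all genes were), and for 13 to 15 under the 6 scalings. Bnip3, a factor of mitochondrial turnover, had 170.02, 119, 124, 93.8 and 468 CPM, and Vegfa, the vessel growth factor, had 146, 74.4, 61.0, 67.7 and 212 CPM. WT 5 also had the most ribosomal RNA, and the part of RNA quality in this was not tested.

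Energy genes of the nuclear and the mitochondrial genome were highest in different tumours. Nuclear genes of the respiratory chain were highest in WT 3 for 39 of 49 members tested (27.6% of all genes were), and for 34 to 39 under the 6 scalings, with 518, 541, 931, 361 and 468 CPM for Cox6c. The 7 messages of the mitochondrial genome that passed the filter were all highest in WT 5 (13.5% of all genes were), with 2313, 1614, 1849, 1525 and 3288 CPM for mt-Cytb. Genes highest in WT 3 had a median transcript of 2626 bases, against 3614 bases for all genes, and WT 5 had the most ribosomal RNA (10.3%). The part of these library properties in the 2 orders was not tested. The other 6 rows of that genome, such as mt-Co2 and mt-Co3, were at 2.10 CPM or less, and the sources used here do not say how reads shared with nuclear copies were treated. Glycolysis was led by Ldha, lactate dehydrogenase A, with 1103, 750.3, 1227, 996 and 1705 CPM, and by the muscle-type aldolase Aldoa with 361, 329.6, 341, 211 and 263 CPM. Of 20 glycolysis genes tested 4 varied 8-fold (4.49% of all genes did) and 5 were highest in WT 2 (20.0% of all genes were). The liver glucose transporter gene Slc2a2 was highest in WT 2 and next in WT 5, with 1.23, 121, 7.42, 13.2 and 34.3 CPM. Its ubiquitous relative Slc2a1 had 72.7, 50.6, 62.9, 42.6 and 115 CPM. Cholesterol synthesis genes were highest in WT 2 for 14 of 19 members tested (20.0% of all genes were), among them Hmgcs1, an early enzyme of the pathway, with 271, 424, 176, 411 and 205 CPM, and fatty acid synthase (Fasn) had 212, 293, 313, 177 and 102 CPM.

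Markers of lymphocytes were close to 0, while markers of macrophages, fibroblasts and red cells were measurable in every tumour. The 20 markers of T and NK cells summed to 7.80, 6.25, 4.52, 6.94 and 10.5 CPM in WT 1 to WT 5, 8 of them had 0 counts in all 5, and none passed the filter. The T cell receptor gene Cd3e had 0 reads in each library, which allows up to 0.469 CPM in WT 2 and 2.10 CPM in WT 5, and Cd8a had 1 read in WT 4 and 0 in the others. B and plasma cell markers summed to 2.46, 11.2, 5.81, 6.94 and 9.81 CPM. Macrophage markers summed to 304, 528, 718, 384 and 308 CPM, highest in WT 3, and Lyz2, the lysozyme gene, had 39.8, 83.0, 212, 59.5 and 35.0 CPM. The Kupffer cell gene Clec4f had 0, 2.81, 0, 0.991 and 0.701 CPM. Of 14 neutrophil markers 2 passed the filter. These were S100a8 with 25.1, 59.4, 27.7, 26.8 and 144 CPM and S100a9 with 22.2, 54.2, 16.5, 18.2 and 94.6 CPM, both highest in WT 5. Markers below the filter had several orders: Mmp8 and Retnlg were highest in WT 5, Lcn2 and Camp in WT 2, and Ly6g in WT 3. Endothelial markers summed to 268, 406, 255, 246 and 196 CPM, with 12.7, 13.3, 6.78, 19.2 and 8.41 CPM for Pecam1.

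Fibroblast and stellate cell markers summed to 2192, 1959, 1340, 1912 and 2477 CPM in WT 1 to WT 5. Col1a1, a chain of type I collagen, had 335, 276, 200.4, 199 and 458 CPM, and was highest in WT 5. Other markers had other orders: Dcn (decorin) had 40.2, 176, 25.2, 32.7 and 129 CPM, highest in WT 2, and Postn (periostin) had 54.6, 8.91, 18.1, 99.4 and 87.6 CPM, lowest in WT 2. Haemoglobin genes, a sign of blood in the tissue, were led by Hbb-bs with 538, 545, 315, 634 and 1372 CPM. Of 17 antigen presentation genes 4 passed the filter. The class I genes H2-K1 with 86.2, 218, 178, 199.8 and 181 CPM and B2m with 69.0, 253, 133, 118 and 215 CPM were present throughout, both lowest in WT 1. Other members were low: Tap1 lay between 3.50 and 11.1 CPM and Tap2 between 1.65 and 8.75 CPM.

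The 10 steadiest genes had spans of 1.05- to 1.13-fold. Glce, an enzyme of heparan sulfate synthesis, was first with 57.1, 58.3, 59.0, 59.8 and 56.8 CPM. Its CV was 2.19% against a counting error of 8.10%, so its spread was within counting error. It was followed by Adipor1, an adiponectin receptor, Cnot2 of the deadenylase complex, the ubiquitin-conjugating enzyme gene Ube2r2, Thoc7 of the mRNA export complex, Socs6, Tmco1, the mitochondrial protease gene Afg3l2, Hspa5 and cofilin (Cfl1). Among the 770 steady genes, 77 had a CV at or under their counting error. Ube2r2 had 207, 212, 201, 202 and 193 CPM, and Thoc7 280.1, 269, 275, 297 and 283 CPM.

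Genes commonly used as references differed in how even they were. Of 16 that passed the filter 4 were steady (9.69% of all genes were), among them Actb with 1729, 1300.2, 1327, 1597 and 1718 CPM, Ywhaz and Sdha. The median span of the 16 was 2.33-fold, beside 2.24-fold over all genes. Gapdh had 51.3, 93.3, 63.9, 22.8 and 35.7 CPM, a 4.01-fold span and it has many processed pseudogenes, so its row is uncertain. Actb was steady under 5 of the 6 scalings. B2m spanned 3.64-fold, Tbp 1.52-fold and Hprt1 1.54-fold.

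The widest single genes were tied to 1 or 2 tumours. By a rule set after the values were seen, 28 of the 7948 genes tested were at least 8-fold higher (on the log2 CPM scale) in 1 tumour than in each of the other 4. The filter is on the mean, so such a gene can pass it through the 1 tumour where it is high. Of the 28 genes, 15 belonged to WT 2, 6 to WT 4, 3 to WT 1, 3 to WT 3 and 1 to WT 5. WT 2 was also highest for 54.3% of all widely varying genes. In WT 3 they were Clca1, a goblet cell gene with 4.11, 0.469, 146, 1.321 and 0.701 CPM, Mptx1, a mucosal pentraxin gene with 5.75, 0.469, 95.5, 0 and 0.701 CPM, and Otogl, which encodes an otogelin-like protein, with 8.62, 2.03, 178, 2.64 and 0.701 CPM. In WT 4, Pou3f1, a neural POU factor, had 2.46, 2.19, 3.55, 115 and 4.91 CPM, and in WT 1 Macc1, a gene linked to metastasis of colon cancer, had 157, 7.03, 7.42, 2.31 and 4.91 CPM. Those of WT 2 included the antitrypsin genes Serpina1a (1.64, 100.8, 2.90, 3.63 and 6.31 CPM) and Serpina1c, which are near-identical copies of each other, the amino acid enzyme genes Fah, Sardh and Prodh2, the gap junction gene Gjb1 (2.46, 186, 4.52, 7.60 and 17.5 CPM) and the enkephalin gene Penk (2.05, 119.7, 5.81, 2.31 and 9.81 CPM). The only one of WT 5, and the widest gene of all, was ENSMUSG00000135968, which has no symbol in the table, with 45.6, 2.19, 0.968, 40.6 and 623 CPM. Hoxc8, a posterior patterning gene, was highest in WT 5 and next in WT 1, with 16.02, 0.469, 0, 1.321 and 83.4 CPM, and Ces1c, a carboxylesterase of liver, had 0, 78.6, 1.94, 4.29 and 21.0 CPM.

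Sex-linked genes were among the widest, and all 5 tested varied 8-fold (4.49% of all genes did). Ddx3y and Kdm5d, on the Y chromosome, had 16.8, 2.34, 132, 10.9 and 393 CPM and 6.57, 0.313, 23.2, 3.30 and 89.7 CPM. WT 1, WT 2 and WT 4 thus had high Xist and low Ddx3y, and WT 3 and WT 5 the reverse, though neither Xist nor Ddx3y was at 0 in any library. Whether a library holds RNA of more than 1 animal was not tested. The labels used here give no sex. WT 2 and WT 5, the 2 tumours highest for hepatocyte genes, lay on opposite sides of this split.

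Over the 7948 genes tested, the Pearson correlation of log2 CPM between pairs of libraries ran from 0.695 (WT 2 and WT 4) to 0.883 (WT 1 and WT 4), a description across genes, which are not independent replicates. The share of genes that differed at least 4-fold was 1.89% between WT 1 and WT 4 and 6.14% between WT 2 and WT 4. In a principal component analysis, component 1 took up 46.0% of the variance between libraries and placed WT 2 and WT 3 against WT 1, WT 4 and WT 5. Ribosomal RNA was at 1.14 and 1.16% in WT 3 and WT 2, and from 4.57 to 10.3% in the other 3, so this split runs with a library property whose part was not tested. Component 2, with 28.1%, placed WT 2 and WT 5, the tumours with the most plasma protein RNA, against the other 3.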

How the data were processed

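The deposited table holds raw read counts per gene for 14 tumour libraries, made by the authors before deposit, and the 5 WT columns were used. Per the labels' protocols, polyadenylated RNA (300 ng, RIN 7.5 to 8.8) was made into 3′ libraries that keep the strand, with molecular identifiers of 6 bases, and read in single reads of 151 bases. The submitters' processing notes name the tools STAR 2.7.11a, UMI-tools 1.1.2, HTSeq 1.99.2, FastQC and DESeq2 1.32.0 and the builds mm10 and GRCh38, without roles, so whether reads that share an identifier were collapsed is unknown here.

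CPM and log2 CPM (prior count 2) were computed with TMM factors (0.9196 to 1.0545) in edgeR 4.0.16 and R 4.3.3. Genes with a mean of at least 20 CPM in WT were called steady at a span of at most 1.5-fold and widely varying at 8-fold or more, which are folds with no test because there is 1 group. On simulated counts, 100% of 100 genes spread 16-fold were called widely varying and 91% of 7916 unspread genes steady. Of 100 genes spread 4-fold, 0% were called either. The variation of the simulated counts was a fixed setting, not estimated from these tumours, so this checks only that the calls are computed as defined. Genes were named by rule: the 20 most abundant, the 10 steadiest, the 10 widest, up to 6 abundant and 3 wide members of each list, absent markers, and 12 fixed genes; others serve as examples of their lists and were chosen after values were seen. The members and 48 gene lists were chosen with earlier results of these data known. Of 1170 list entries 1148 matched the table as listed and 21 by a newer symbol. The rule for genes high in 1 tumour was set after the data were seen. Gene positions are from GENCODE M21 (GRCm38), and promoters from RefSeq. Alternatives were other scalings (library totals, DESeq2 1.42.0 size factors, upper-quartile and others), filters, prior counts, thinning and leaving out libraries. Results on a few genes are not reported here.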

Additional observations from a re-analysis of the deposited data

Results flagged for a closer look

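Of 150 named genes that passed the filter and 48 list sums, 8 genes had 1 tumour far from the other 4 by Dixon's ratio, the gap to the nearest tumour over the whole range on the log2 scale. Chance alone flags about 1 in 20 groups, and 8 of 150 genes is close to that rate. Sp5 was low in WT 1, with a ratio of 0.843 (63.2, 198, 201, 206 and 245 CPM in WT 1 to WT 5). Pou3f1 was high in WT 4, with a ratio of 0.818 (2.46, 2.19, 3.55, 115 and 4.91 CPM). Mt1 and Mt2, the metallothionein genes, were low in WT 4, with ratios of 0.824 (294, 351, 330.05, 62.4 and 409 CPM) and 0.784 (257, 373, 429, 39.6 and 309 CPM). H2-K1, a class I antigen-presenting gene, was low in WT 1, with a ratio of 0.780 (86.2, 218, 178, 199.8 and 181 CPM). Irx3 was low in WT 2, with a ratio of 0.753 (63.2, 22.8, 54.8, 73.0 and 68.7 CPM). Macc1 was high in WT 1, with a ratio of 0.747 (157, 7.03, 7.42, 2.31 and 4.91 CPM). Ccng1, a p53 target, was high in WT 4, with a ratio of 0.730 (45.6, 51.4, 60.7, 145 and 62.4 CPM). Pou3f1 and Macc1 had been named for being high in 1 tumour, so their flags add nothing to that choice. No list sum was flagged.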

How the results depend on the processing

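There were 770 steady and 357 widely varying genes. At a mean of at least 5 CPM there were 916 steady and 1081 widely varying genes, at 50 CPM 537 and 137, and with no filter 2753 and 2026, where genes with few reads enter. Other scalings, prior counts, thinning to the shallowest library and leaving out ribosomal RNA rows kept both counts within 1.5 times. They did not keep the same genes: with upper-quartile factors 334 of the 770 steady genes stayed steady, and after thinning 483, while 314 and 322 of the 357 widely varying genes stayed so. Ranges over fewer libraries are narrower by construction. Leaving out 1 library gave 1180 to 1679 steady and 190 to 349 widely varying genes, the fewest widely varying ones without WT 2. Leaving out WT 3 and WT 5 together, chosen after seeing the data, gave 2911 and 337. The median log2 range of liver secreted proteins, 5.21, was 2.98 to 5.30 with 1 library left out, with 4.24 without WT 1 and the lowest value without WT 2, and 5.25 to 5.40 under the 2 other scalings tried. The share of the 20 most abundant genes stayed between 6.39 and 9.04% with 1 library left out and was 5.66% without the mitochondrial genome. Of 3264 recomputed values of single lists and genes 166 moved by more than the spread, 154 of them with a library left out. Depth limits genes below 20 CPM in WT 5, where counting error is 18.7% or more. No paired analysis was possible because 1 group was described.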

Other observations

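Acute phase genes, which the liver makes in inflammation, followed the plasma proteins, with which the list shares members such as Fgb. Of 22 genes 11 passed the filter and all 11 varied 8-fold (4.49% of all genes did), with 33.3, 689, 93.9, 81.9 and 157 CPM for complement C3 and 20.1, 523, 31.3, 88.5 and 182 CPM for ceruloplasmin (Cp), the copper carrier, in WT 1 to WT 5. WT 2 was highest and WT 1 lowest for both. Metallothioneins, which bind zinc and copper, were lowest in WT 4, with 294, 351, 330.05, 62.4 and 409 CPM for Mt1 and 257, 373, 429, 39.6 and 309 CPM for Mt2, while the antioxidant enzyme gene Prdx1 was even at 654, 800.3, 907, 552 and 598 CPM.

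Targets of p53 showed no single order. Bbc3, a death factor gene, was steady at 62.0, 63.0, 54.5, 64.1 and 56.8 CPM, and Btg2 was steady at 94.5, 120.2, 133, 100.7 and 124 CPM. Zmat3 and Ccng1 were highest in WT 4, with 106, 108, 206, 312 and 108 CPM and 45.6, 51.4, 60.7, 145 and 62.4 CPM, and Phlda3 was highest in WT 3, with 32.9, 62.2, 111, 45.9 and 9.11 CPM. Of 12 members tested 6 were highest in WT 4 (19.9% of all genes were). These 6 include Trp53, the gene of p53 itself, and the steady Bbc3 with a span of 1.17-fold. Of the immediate early genes, Jun had 140.04, 93.6, 110.02, 182 and 515 CPM and Jund 129.8, 55.5, 34.2, 113 and 296 CPM, both highest in WT 5, whereas the constitutive chaperone gene Hspa8 was lowest there, with 482, 475, 579.8, 288 and 138 CPM. Psat1, an enzyme gene of serine synthesis, was steady with 232, 258, 283, 203 and 211 CPM. Interferon-induced genes were low, with 2 of 22 past the filter: Bst2 had 96.5, 99.2, 59.0, 29.4 and 51.2 CPM and Rsad2 41.1, 40.3, 11.9, 34.0 and 114 CPM. Of 22 genes that differ between male and female mouse liver none passed the filter, and their sum was 6.98, 72.7, 4.19, 24.8 and 25.9 CPM.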
